A study of Mus musculus with 12 samples.

Results

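The genes described here are 30 listed regulators and markers of the thalamus, the rest of the diencephalon and the midbrain, found by symbol among the 55335 genes of a bulk RNA-seq count table of mouse embryonic cortex. They were listed by name to ask which brain region the non-cortical signal in single libraries points to, and the list was drawn up with earlier results of these data known, so the shares below describe the list and are not independent evidence. The samples were taken at E13.5, in the middle of cortical neuron production, from embryos of Med13l heterozygous parents, and were labelled as cortex. The 9 libraries came from embryos homozygous for the Med13l-null allele (KO), heterozygous embryos (Het) and wild-type embryos (WT), with 3 brain tissues each. The Med13l protein belongs to Mediator, which links transcription factors to RNA polymerase II. Single-cell samples of the same genotypes were not analysed here.

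The thalamus, the habenula, the pretectum and the hypothalamus arise from the diencephalon, which lies behind the cortex and in front of the midbrain. Each of these territories is set up by its own transcription factors, many of them homeodomain, basic helix-loop-helix (bHLH) or zinc finger proteins that the dorsal cortex uses little or not at all. Others among the listed genes have a second life in the forebrain midline, in Cajal-Retzius cells, in the meninges or in blood cells, so their presence in a cortical sample has more than 1 textbook source.

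Library totals ran from 38161494 to 43686923 counts in KO, 37909377 to 44838473 in Het and 44525713, 52992392 and 44290741 in WT. Med13l itself stood at 130.0 to 163 CPM in KO, 141 to 160.2 CPM in Het and 116 to 146 CPM in WT, where CPM is the count divided by the scaled library total in units of 1000000. The gene-level count therefore does not separate the genotypes and checks neither the null allele nor the labels. Defining cortical genes were present in every library. The summed level of 13 cortical genes was 1086 CPM in Het 1 and 2348 to 3719.5 CPM elsewhere. Xist, transcribed from the inactive X of females, was at 2173 CPM in KO 3, 1878 CPM in Het 1, 2192 CPM in Het 3 and 1804 CPM in WT 1, and at most 0.321 CPM in the other 5 libraries.

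The promoters of 4 members are shown for the genes whose levels carry the description below. Tcf7l2 was the member with the highest level per length in Het 1, Shox2 had the largest difference from its median there on the log2(CPM + 0.1) scale, Pou4f2 had no count outside that library, and Zic1 was the most abundant member per length in the other libraries. The windows are RefSeq promoters on GRCm38.p6, from 250 bases before to 50 bases after the start, 5′ to 3′ on the gene's strand, with every CpG dinucleotide in capitals. They lie at chr19:55741560-55741859 (plus strand), chr3:66981722-66982021 (minus), chr8:78436598-78436897 (minus) and chr9:91365719-91366018 (minus).
Tcf7l2: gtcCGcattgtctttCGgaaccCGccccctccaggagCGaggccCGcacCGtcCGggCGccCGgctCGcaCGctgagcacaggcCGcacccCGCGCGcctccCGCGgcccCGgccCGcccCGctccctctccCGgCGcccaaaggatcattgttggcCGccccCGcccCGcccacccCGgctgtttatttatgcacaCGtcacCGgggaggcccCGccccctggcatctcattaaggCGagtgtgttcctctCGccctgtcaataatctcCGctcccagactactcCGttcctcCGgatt
Shox2: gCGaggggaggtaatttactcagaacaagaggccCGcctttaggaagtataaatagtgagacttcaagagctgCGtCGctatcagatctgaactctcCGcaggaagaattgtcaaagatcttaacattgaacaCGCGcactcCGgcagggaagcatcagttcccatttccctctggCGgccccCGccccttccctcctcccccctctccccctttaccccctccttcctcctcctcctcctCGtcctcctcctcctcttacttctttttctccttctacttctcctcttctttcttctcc
Pou4f2: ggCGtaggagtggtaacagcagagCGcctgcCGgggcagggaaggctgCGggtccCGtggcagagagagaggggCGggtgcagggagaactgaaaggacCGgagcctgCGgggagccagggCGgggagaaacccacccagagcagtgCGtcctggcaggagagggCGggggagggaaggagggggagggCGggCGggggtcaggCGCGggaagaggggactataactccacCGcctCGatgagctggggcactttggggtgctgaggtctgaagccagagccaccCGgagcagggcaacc
Zic1: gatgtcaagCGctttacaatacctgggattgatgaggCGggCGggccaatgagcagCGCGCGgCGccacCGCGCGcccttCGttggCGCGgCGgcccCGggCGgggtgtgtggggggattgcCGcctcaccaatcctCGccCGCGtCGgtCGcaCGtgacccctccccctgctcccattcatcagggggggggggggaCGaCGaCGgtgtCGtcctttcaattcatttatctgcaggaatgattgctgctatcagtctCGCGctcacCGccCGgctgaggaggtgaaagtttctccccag

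A RefSeq promoter was matched for 26 of the 30 members, all of them protein coding and spread over 14 chromosomes. These windows held 4 to 57 CpG dinucleotides, with a median of 21, against a median of 7 over all 32851 mouse promoters of the table. On either strand, the TATA letters TATAAA were in 5 of the 26 member promoters and in 13.6% of all promoters. The E box CANNTG, bound by bHLH proteins, was in 18 of the 26 and in 72.3% of all. The GATA letters AGATAA were in 2 and in 11.2% of all, and the TCF/LEF letters CTTTGAA in 2 and in 5.14%. CTTTGAT was in 0 and in 3.73%, and the homeodomain core TAATTA in 1 and in 5.29%. A letter match in a window this short is only a description of the sequence.

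Most members were highest in 1 library. In Het 1, 28 of the 30 members had their highest level of the 9 libraries, the exceptions being Sim1 and Otp, and 26.3% of all 18844 tested genes were highest there. Set against its own median over the 9 libraries on the log2(CPM + 0.1) scale, 23 of the 30 members stood over 4-fold above it in Het 1, against 1.26% of the 31115 genes with any count. In KO 2 the same held for 5 of 30 members, against 0.186% of genes, and in the other 7 libraries for 0 of 30. The share of genes past that limit in those 7 was 0.0964% in KO 1, 0.145% in KO 3, 0.0932% in Het 2, 0.148% in Het 3, 0.116% in WT 1, 0.122% in WT 2 and 0.0996% in WT 3. The summed level of the 30 genes was 495, 637 and 532 CPM in KO 1, KO 2 and KO 3, 3313, 361 and 548 CPM in Het 1, Het 2 and Het 3, and 457, 424 and 420.1 CPM in WT. In bulk RNA, more cells of a type and more RNA per cell cannot be told apart. The count of 23 came out between 21 and 25 with other folds, pseudocounts, scalings and centres and when each other library was left out.

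**Figure D1:**
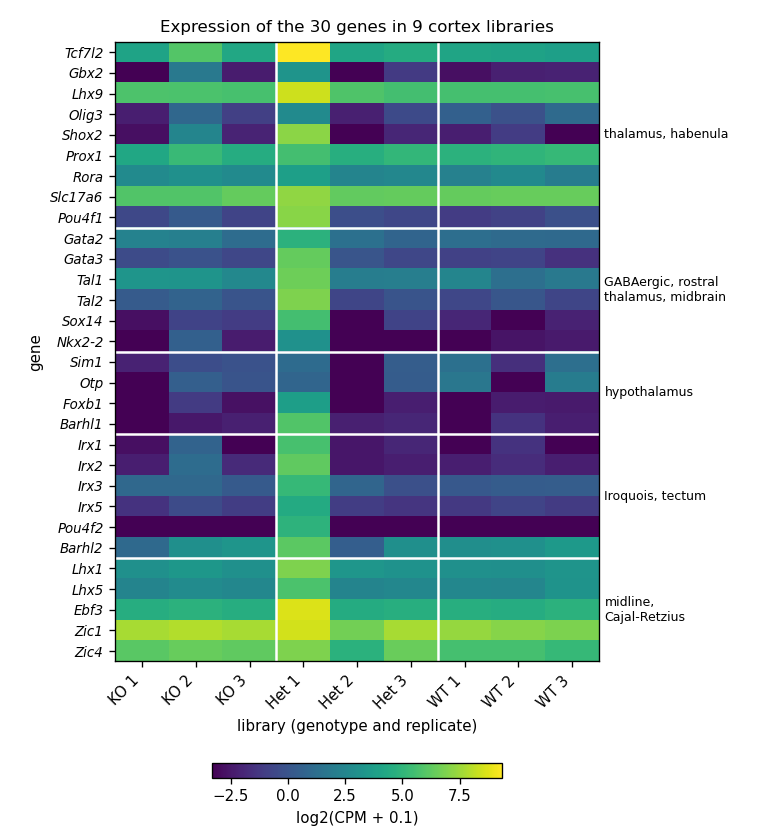
Level of each of the 30 genes (rows, grouped by the territory they are known from) in each library (columns; KO, Het and WT, replicates 1 to 3), as log2(CPM + 0.1) in colour. The Het 1 column is brightest for 28 of the 30 genes, and Pou4f2 has a count in that column alone.

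**Figure D2:**
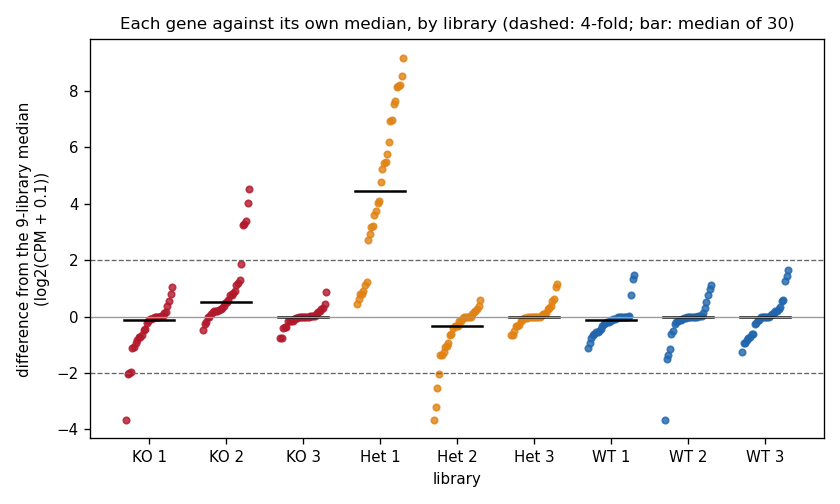
Difference of each of the 30 genes from its own 9-library median (vertical axis, log2(CPM + 0.1)) in each library; 1 point is 1 gene, the bar is the median of the 30, and the dashed lines mark 4-fold. In Het 1, 23 points lie above the upper line; in KO 2, 5 do.

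Among the genes of the thalamus and habenula, Tcf7l2, a TCF/LEF factor of the Wnt pathway that marks developing thalamus, habenula and pretectum, had 16.1, 63.3 and 19.5 CPM in KO 1, KO 2 and KO 3. It had 657, 17.2 and 22.4 CPM in Het 1, Het 2 and Het 3, and 16.6, 15.8 and 14.3 CPM in WT. Het 1 stood 38.1-fold and KO 2 3.67-fold above the median, and the other 7 libraries lay between 14.3 and 22.4 CPM. Shox2, a homeobox gene of caudal thalamic neurons, had 0.0445, 5.41 and 0.141 CPM in KO, 140.1, 0 and 0.160 CPM in Het and 0.112, 0.378 and 0 CPM in WT. Het 1 was thus 583-fold and KO 2 22.9-fold above the median on the log2(CPM + 0.1) scale, and every other library was under 0.4 CPM.

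Gbx2, a homeodomain factor that postmitotic thalamic neurons need, had 0, 3.40 and 0.0938 CPM in KO, 9.25, 0 and 0.346 CPM in Het and 0.0449, 0.113 and 0.134 CPM in WT. It shares 43.5% of its exon length with an antisense transcript, D130058E05Rik, and the strand setting of the counting is not given in the sources used here. Pou4f1, a POU factor of the habenula, the red nucleus and the tectum, had 136 CPM in Het 1, and 0.382 to 1.12 CPM in the other 8 libraries. Olig3, a bHLH factor of thalamic progenitors, had 6.55 CPM in Het 1. KO 2, at 1.79 CPM, and WT 3, at 1.99 CPM, came next, and its lowest levels were 0.111 CPM in KO 1 and 0.116 CPM in Het 2. Lhx9, a LIM homeodomain factor of the thalamus, was also abundant elsewhere. It had 56.1, 55.0 and 50.6 CPM in KO, 335, 57.5 and 47.7 CPM in Het and 49.0, 49.5 and 51.4 CPM in WT, so that 8 libraries lay within 10 CPM of each other.

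The other thalamic members stayed nearer to their medians. Slc17a6, the vesicular glutamate transporter VGLUT2, had 59.6, 60.0 and 82.4 CPM in KO, 155, 79.8 and 83.3 CPM in Het and 81.4, 83.9 and 85.6 CPM in WT. It was 1.88-fold above its median in Het 1, and KO 1 and KO 2 were its lowest libraries. Prox1, a homeobox factor of thalamic nuclei that the hippocampus and interneurons also use, had 48.0 CPM in Het 1 and 18.8 to 38.7 CPM in the other 8 libraries, KO 2 being the highest of these. Rora, a nuclear receptor of thalamocortical neurons, had 14.0 CPM in Het 1 and 3.90 to 8.29 CPM in the others. None of the 3 reached 4-fold in any library.

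All 6 members known from GABAergic neurons of the rostral thalamus and midbrain were over 4-fold above their median in Het 1. Gata3, a zinc finger factor that acts with Gata2 and Tal1 in these neurons, had 0.646, 0.832 and 0.539 CPM in KO, 83.6, 0.903 and 0.559 CPM in Het and 0.449, 0.510 and 0.246 CPM in WT. Tal2, a bHLH factor needed for GABAergic fate in the midbrain, had 119 CPM in Het 1 and 0.532 to 1.56 CPM in the other 8. Het 1 was 127-fold above the median for Gata3 and 121-fold for Tal2, and no other library reached 2 CPM for either gene. Sox14, an HMG box factor of rostral thalamic GABAergic neurons, had 47.6 CPM in Het 1 and at most 0.494 CPM, in KO 2, elsewhere. Nkx2-2, a homeobox gene of the stripe along the zona limitans and the rostral thalamus, had 8.38 CPM in Het 1, with KO 2 next at 1.38 CPM. It was at or below 0.0938 CPM in the other 7 libraries, of which 4 had no count.

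Gata2 and Tal1 also act in blood cells, and both had a floor in every library. Gata2 had 28.7 CPM in Het 1 and 1.60 to 4.81 CPM in the other 8 libraries, with KO 1 and KO 2 next in order. Tal1 had 9.55, 9.25 and 5.98 CPM in KO, 93.8, 4.00 and 4.23 CPM in Het and 5.37, 2.34 and 3.45 CPM in WT. The 10 red cell genes summed to 2327 to 3408 CPM in KO, 1860 to 2101 CPM in Het and 1545 to 2169 CPM in WT, and Het 1, at 1909 CPM, lay inside the range of the other libraries. The red cell genes were highest in KO 1 and KO 2, which were next to Het 1 in the order for Tal1 and Gata2. The part of blood cells in the levels of Tal1 and Gata2 was not tested in any library.

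The hypothalamic members split. Sim1 and Otp, which act together in neuroendocrine neurons of the hypothalamus, were the only members not highest in Het 1. Otp had 0, 1.35 and 0.891 CPM in KO, 1.64, 0 and 1.17 CPM in Het and 3.14, 0 and 3.92 CPM in WT. Sim1 had 0.134, 0.702 and 0.821 CPM in KO, 2.03, 0 and 1.25 CPM in Het and 2.49, 0.227 and 2.37 CPM in WT. Both were low in KO 1, Het 2 and WT 2 and highest in WT 1 and WT 3, with the genotypes overlapping. Foxb1 and Barhl1, known from the mammillary region but in Barhl1 also from the midbrain, followed the other pattern. Foxb1 had 13.7 CPM in Het 1 and at most 0.364 CPM elsewhere, and B230323A14Rik, antisense to it and covering 14.0% of its exons, had 8.93 CPM in Het 1 and at most 0.104 CPM elsewhere. Barhl1 had 60.9 CPM in Het 1 and at most 0.264 CPM elsewhere.

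All 6 Iroquois and tectal members were over 4-fold above their median in Het 1. Pou4f2, a POU factor known from retinal ganglion cells and the tectum, had 1268 counts (29.0 CPM) in Het 1 and 0 in each of the other 8 libraries. With a floor of 3 counts per library, that is at least 362-fold higher. The Iroquois genes, homeobox genes that pattern the caudal diencephalon and the midbrain, sit in clusters, with Irx1 and Irx2 665 kb apart on chromosome 13 and Irx3 and Irx5 556 kb apart on chromosome 8. Irx2 had 0.111, 2.13 and 0.188 CPM in KO, 77.8, 0.0694 and 0.107 CPM in Het and 0.112, 0.208 and 0.112 CPM in WT. Irx1 had 50.3 CPM in Het 1, 1.56 CPM in KO 2 and at most 0.264 CPM in the other 7. KO 2 was 10.5-fold above the median for Irx2 and 9.79-fold for Irx1. For Irx3 and Irx5 KO 2 was under 4-fold above the median. Irx3 had 36.4 CPM in Het 1 and 0.746 to 1.85 CPM elsewhere, with KO 1 and KO 2 nearly equal, and Irx5 had 21.8 CPM in Het 1 and 0.267 to 0.650 CPM elsewhere. Barhl2, a homeobox gene of the diencephalon, had 72.9 CPM in Het 1, 7.52 to 11.7 CPM in 6 libraries and 1.94 and 1.30 CPM in KO 1 and Het 2.

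The remaining 5 members are also known from the cortical midline, Cajal-Retzius cells or meninges. Ebf3, a helix-loop-helix factor, had 24.0, 28.6 and 24.1 CPM in KO, 410.3, 22.1 and 24.8 CPM in Het and 25.0, 23.3 and 28.5 CPM in WT. Lhx1, a LIM homeodomain factor, had 119 CPM in Het 1 and 7.89 to 10.2 CPM elsewhere, and its relative Lhx5 had 54.4 CPM in Het 1 and 5.23 to 8.92 CPM elsewhere. Outside Het 1 the libraries of the 3 genotypes overlapped for each of these 3 genes. The 6 Cajal-Retzius genes other than the members summed to 601 CPM in Het 1 and 329 to 414 CPM elsewhere, and 0 of the 6 stood over 4-fold above its median in Het 1. The 12 hem and choroid plexus genes summed to 667 CPM in Het 1, inside the 225 to 709 CPM of the other libraries, and 1 of the 12 stood over 4-fold above its median there. Ttr, the most abundant of them, weighs heavily in that sum, with 365 CPM in Het 1 and 125 to 561 CPM elsewhere. Otx2, also on that list, had 195 CPM in Het 1 and 15.5 to 38.2 CPM elsewhere. Of the 6 Cajal-Retzius genes 4 were highest in Het 1. Reln, the defining Cajal-Retzius product, had 300.1 CPM in Het 1 and 190.2 to 258 CPM elsewhere. Cacna2d2 had 175 CPM in Het 1 and 57.3 to 81.7 CPM elsewhere, and Nhlh2 92.2 CPM in Het 1 and 35.4 to 42.1 CPM elsewhere. The part of Cajal-Retzius cells in the levels of Ebf3, Lhx1 and Lhx5 was not tested.

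Zic1 and Zic4, zinc finger genes that overlap by 3398 bases on opposite strands of chromosome 9 with 60 bases of shared exon, behaved differently from the rest. Zic1 had 209, 235 and 209.9 CPM in KO, 359, 100.1 and 207 CPM in Het and 164, 134 and 117 CPM in WT. Zic4 had 70.4, 85.3 and 77.7 CPM in KO, 122, 27.2 and 88.0 CPM in Het and 48.7, 49.1 and 36.6 CPM in WT. Both were 1.73-fold above their median in Het 1 and lowest in Het 2, and every KO library lay above every WT library.

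Levels of different genes can be set side by side only per length of exon. As RPKM, which is CPM per kilobase of exon, the highest 9-library medians were 36.4 for Zic1, 15.3 for Slc17a6, 6.81 for Zic4, 5.41 for Lhx9 and 3.71 for Prox1, all of them members that act in other cells of the forebrain too. The median RPKM of Pou4f2 was 0 and those of Nkx2-2, Irx1, Barhl1 and Foxb1 were 0.0197 to 0.0300. In Het 1 the order was another: Tcf7l2 led at 74.9 RPKM, followed by Zic1 at 63.0, Ebf3 at 44.5, Shox2 at 42.3 and Tal2 at 40.0. Sim1, at 0.236 RPKM, and Otp, at 0.571 RPKM, were the lowest there. Members at 10 CPM or more numbered 25 in Het 1, and 9 reached that level in any other library.

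KO 2 repeated a part of the Het 1 pattern at a lower level. It was the second highest library for 16 of the 28 members that peaked in Het 1. Some of these ranks are near ties, such as Ebf3 at 28.6 CPM in KO 2 and 28.5 CPM in WT 3. The share of all genes with this order is not given here, so the count describes the members only. The 5 members over 4-fold above their median in KO 2 were Gbx2, Shox2, Nkx2-2, Irx1 and Irx2, and all 5 were past 4-fold in Het 1 too. Others that were high in Het 1 were not high in KO 2: Pou4f2 had no count there, Barhl1 had 0.0780 CPM, Ebf3 had 28.6 CPM and Lhx9 55.0 CPM. KO 2 also had the highest level of Nkx2-1, a factor of the hypothalamus and of the medial ganglionic eminence, at 41.5 CPM against 1.48 CPM in Het 1 and at most 11.4 CPM in the other 7. Its summed ganglionic eminence genes were the highest of the 9 libraries, at 586 CPM, against 108 to 566 CPM in the others. Their part in the result was not tested.

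Some members stood over 4-fold below their median, 6 of the 7 cases in 2 libraries that were also low in ganglionic eminence genes. These were Olig3, Sim1, Otp and Barhl2 in Het 2 (4 of 25 tested members, against 0.833% of tested genes), Olig3 and Otp in KO 1 (2 of 25, against 0.716%) and Otp in WT 2 (1 of 25, against 0.281%). The 12 ganglionic eminence genes summed to 138 CPM in KO 1 and 108 CPM in Het 2, against 284 to 586 CPM in the other 7 libraries, and 4 of them in KO 1 and 7 in Het 2 were over 4-fold below their median. Their part in the result was not tested. WT 2, at 284 CPM, had 0 of the 12 below that limit. Het 1, at 360 CPM, had 6 of the 12 below it, but 0 of the 30 members.

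Genes of neighbouring territories that are not members show how far the Het 1 pattern extends. Of 14 further midbrain genes, 9 were over 4-fold above their median in Het 1, and their summed level was 1097 CPM there against 35.6 to 87.2 CPM elsewhere. Tfap2b, an AP-2 factor of the dorsal midbrain, had 695 CPM in Het 1 and 3.52 to 22.5 CPM in the others. Otx2, a homeobox factor of forebrain and midbrain that the choroid plexus also uses, had 195 CPM in Het 1 and 15.5 to 38.2 CPM in the others. Lmx1a, of the roof plate and the ventral midbrain, had 10.2 CPM in Het 1, within the 7.55 to 16.0 CPM of the others. En2 and Pax7, midbrain genes among the 10 non-members furthest above their median, had 22.5 and 75.8 CPM in Het 1, and at most 0.0891 and 1.74 CPM elsewhere. En1, named after its values were seen, had 7.42 CPM in Het 1 and no count in the other 8, at least 92.9-fold higher with the floor of 3 counts per library. Pax5, chosen in the same way, had 71.9 CPM in Het 1 and 0.324 to 2.11 CPM elsewhere. Genes named for high values in Het 1 do not stand for the whole midbrain list, of which 11 of 14 were highest there.

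In the lists of the other territories fewer genes passed 4-fold. Of 10 further thalamic genes 2 passed 4-fold in Het 1, with a sum of 711 CPM against 276 to 427 CPM elsewhere. The most abundant, Cacna1g, a calcium channel, had 211 CPM in Het 1 and 90.5 to 147 CPM in the others, and Lef1, a Wnt factor of the thalamus, 125 CPM in Het 1 and 44.4 to 69.4 CPM in the others. Of 8 further habenular genes 2 passed, and of 13 further hypothalamic genes 1. The summed hypothalamic genes in Het 1, 49.0 CPM, lay inside the 6.97 to 67.5 CPM of the other libraries. Six3, the most abundant of them, had 27.9 CPM in Het 1 and 1.37 to 19.3 CPM in the others. The 12 hindbrain and spinal cord genes were near 0 in every library, with a sum of 0.936 CPM in Het 1 and 0 to 0.223 CPM elsewhere, and 1 of 12, Tlx3, passed 4-fold at 0.685 CPM. These lists, too, were drawn up with earlier results of these data known, so their shares past 4-fold describe the genes listed and do not rank the territories.

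Genes of other cell classes also stood apart in Het 1. Of 13 cortical genes 4 and of 12 ganglionic eminence genes 6 were over 4-fold below their median, against 0.541% of tested genes. Neurod6, a factor of cortical excitatory neurons, had 96.8 CPM in Het 1 and 278 to 604 CPM elsewhere, and Dlx1, of the ganglionic eminences, 8.72 CPM in Het 1 and 14.4 to 184 CPM elsewhere. Gad2, which makes GABA, was not low, with 109 CPM in Het 1 and 10.6 to 106 CPM elsewhere. The 11 general neuronal genes were highest in Het 1, summing to 5926 CPM against 2212 to 4452 CPM, and the 12 progenitor and cell cycle genes lowest, at 2310 CPM against 3244 to 4298 CPM. The part of these differences in the members' levels was not tested.

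**Figure D3:**
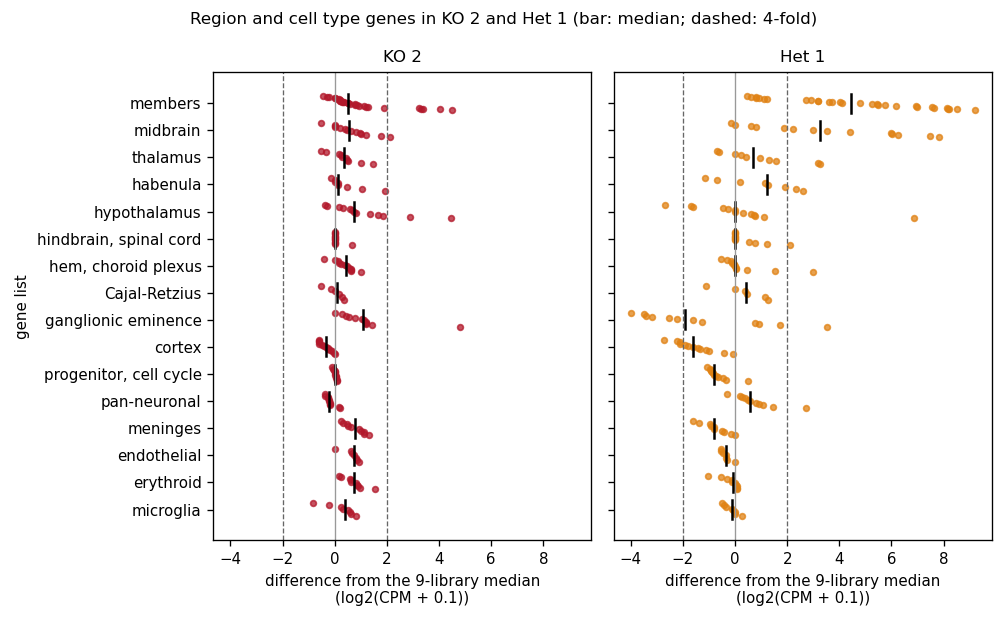
Difference from the 9-library median (horizontal axis, log2(CPM + 0.1)) of the 30 genes ("members") and of the genes of 15 further lists, in KO 2 (left) and Het 1 (right); 1 point is 1 gene, the bar is the list's median and the dashed lines mark 4-fold, and a few genes stand in more than 1 list. In Het 1 the members and the midbrain list lie furthest to the right, and the cortex and ganglionic eminence lists to the left.

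Among the 10 non-members furthest above their median in Het 1 were Xist, Mab21l2, En2, Asic4, Pax7, Shisa3, Pax3, Onecut3 and B230323A14Rik. Mab21l2, known from the developing eye and the tectum, had 145 CPM in Het 1 and at most 0.627 CPM elsewhere. Pax3, a paired box factor of the dorsal neural tube, had 41.8 CPM in Het 1 and at most 0.910 CPM elsewhere. KO 3, Het 3 and WT 1, the other libraries high in Xist, had 0 of 30 members over 4-fold above their median. The part of sex in the members' levels was not tested. The genes furthest below were the Y-linked Kdm5d, Eif2s3y, Ddx3y, Uty and Gm29650, all at 0 in Het 1, followed by B3gnt2, Dlx1as, Gm14036, Gm45717 and Gm8210. Low Kdm5d was not particular to Het 1: it was at 0.399 CPM in KO 3, 0 in Het 3 and 0.112 CPM in WT 1. B3gnt2, a glycosyltransferase gene, had 0.160 CPM in Het 1 and 1.38 to 12.6 CPM in the other libraries.

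The genotype comparisons used edgeR's quasi-likelihood test on all 18844 genes that passed its filter on low counts, with Benjamini-Hochberg adjustment and a threshold of 0.05. Of the 30 members 25 passed the filter, and Nkx2-2, Foxb1, Barhl1, Irx2 and Pou4f2 did not, since they reach the needed count in too few libraries. KO against WT and Het against WT share the WT libraries, and KO against Het shares each of its groups with one of them.

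In KO against WT, 0 members were called, with 0.00531% of genes called over the whole table. At an unadjusted p under 0.05 edgeR had 0 members, against 5.72% of genes. DESeq2 called 0 members, against 0.0955% of genes, but gave no p-value, adjusted or not, for 15 of the 25 and so could not call those. Without Het 1 and KO 2, a fit added after seeing the data, 0 of 22 tested members were called, against 0.00524% of genes. The 6 most abundant tested members had these differences in level, as log2 fold change with its standard error. Zic1 had 0.66 ± 0.37 and Zic4 0.80 ± 0.43, both with an edgeR adjusted p of 0.870. Tcf7l2 had 1.08 ± 1.23 (edgeR adjusted p = 0.918), and 0.19 without KO 2. Slc17a6 had -0.31 ± 0.25 (edgeR adjusted p = 0.898), Lhx9 0.11 ± 0.63 (0.994) and Ebf3 0.0012 ± 0.95 (0.9999). The fit estimates a single spread per gene over all 9 libraries. Het 1, in neither group, therefore enters these standard errors and p-values, which do not measure the spread of KO and WT alone. Ebf3, for example, had 24.0 to 28.6 CPM in KO and 23.3 to 28.5 CPM in WT. A p above the threshold does not show that levels are equal. Without Het 1, a fit in which 9.48% of genes had an unadjusted p under 0.05, 5 of 25 tested members did. These were Rora, Gata2, Tal1 and Zic1, with positive fold changes, and Slc17a6, with a negative one, and their edgeR adjusted p ran from 0.502 to 0.523. That count was 2 without Het 2 and 0 when any 1 of the other libraries was left out.

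By genotype, Zic1 averaged 218 ± 14.6 CPM in KO and 138 ± 23.9 CPM in WT, and Zic4 averaged 77.8 ± 7.47 CPM in KO and 44.8 ± 7.12 CPM in WT (SD, n = 3 each). Every KO library lay above every WT library for 5 of the 30 members, Rora, Gata3, Tal1, Zic1 and Zic4, where 7.44% of tested genes did so. None lay below in every library, where 7.56% of genes did. Rora had 6.52, 8.29 and 6.59 CPM in KO and 4.69, 6.44 and 3.90 CPM in WT, so that KO 1 and WT 2 nearly touched. Tal1 averaged 8.26 ± 1.98 CPM in KO and 3.72 ± 1.53 CPM in WT, and Gata3 0.672 ± 0.148 CPM in KO and 0.402 ± 0.138 CPM in WT (SD, n = 3 each). The descriptions of the samples carry a letter, D for replicates 1 and 2 and F for replicate 3, whose meaning is not given. On the log2(CPM + 0.1) scale the KO minus WT difference of Zic1 was 0.58 within D and 0.85 within F, where each genotype has 1 library. That of Zic4 was 0.66 within D and 1.08 within F, that of Tal1 1.38 and 0.78, that of Rora 0.41 and 0.74 and that of Gata3 0.53 and 0.88.

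Markers of other cell types were also high in KO 1 and KO 2. The meningeal genes summed to 903 to 2046 CPM in KO and 556 to 1072 CPM in WT, with 0 of 10 called in KO against WT and a median log2 fold change of 0.70. Endothelial genes summed to 315 to 610 CPM in KO and 234 to 409 CPM in WT, with 0 of 7 called, and microglial genes to 46.3 to 74.6 CPM in KO and 42.0 to 55.6 CPM in WT, with 0 of 8 called. The red cell genes given above had 0 of 10 called and a median of 0.72. Col3a1, a fibroblast collagen of the meninges, was at 994, 810.1 and 407 CPM in KO and 511, 410.4 and 232 CPM in WT. The part of these cells in the levels of Zic1, Zic4 and Tal1 was not tested.

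**Figure D4:**
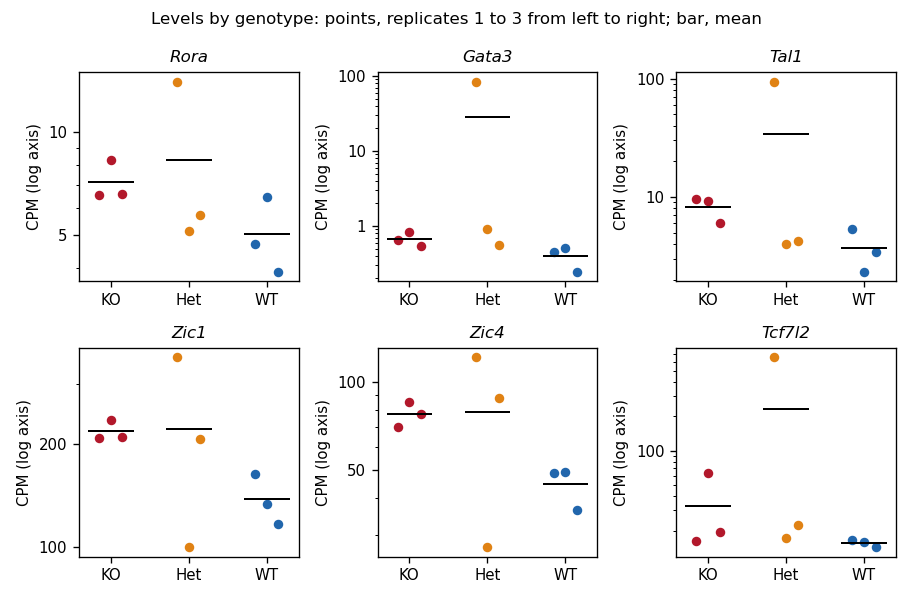
CPM (log axis) of Rora, Gata3, Tal1, Zic1, Zic4 and Tcf7l2 by genotype; points are libraries, replicates 1 to 3 from left to right, and the bar is the mean of 3. For the first 5 genes every KO point lies above every WT point, and Het 1 is the highest point in each panel.

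In Het against WT, 0 members were called and 0% of genes over the whole table. At an unadjusted p under 0.05 edgeR had 14 of the 25 tested members, against 1.56% of genes, all higher in Het. The list was drawn up with earlier results of these data known, so this share is not independent evidence. Shox2 and Irx1, among the 14, no longer passed the low-count filter without Het 1 and KO 2. DESeq2 called 0 members, against 0.00531% of genes, and gave no p-value, adjusted or not, for 15 of the 25. All of the 14 were among these 15, Tcf7l2 and Ebf3 included, so DESeq2 could not call any of them. The 14 became 0 without Het 1, where 1.44% of genes passed, 24 without Het 2, 6 without WT 1, 4 without WT 2 and 5 without WT 3. It was 0 with limma-voom. Tcf7l2 averaged 232 ± 368 CPM in Het and 15.6 ± 1.17 CPM in WT (SD, n = 3 each), an SD set by Het 1. Its log2 fold change was 3.90 ± 1.35, that of Ebf3 2.58 ± 1.00, that of Lhx9 1.56 ± 0.65, that of Zic4 0.82 ± 0.43, that of Zic1 0.69 ± 0.37 and that of Slc17a6 0.34 ± 0.25. The edgeR adjusted p of each was 0.999. Without Het 1 the same log2 fold changes were 0.34 for Tcf7l2, -0.13 for Ebf3, 0.071 for Lhx9, 0.36 for Zic4, 0.15 for Zic1 and -0.040 for Slc17a6. Every Het library lay above every WT library for 2 of the 30, Tcf7l2 and Gata3, where 2.46% of genes did so, and for 0 below, where 2.72% did. For Tcf7l2 the nearest values were 17.2 CPM in Het 2 and 16.6 CPM in WT 1.

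In KO against Het, 0 members were called, with 0.00531% of genes called. At an unadjusted p under 0.05 edgeR had 10 members, against 7.74% of genes, all lower in KO, a share that is not independent evidence either. DESeq2 called 0, against 0.117% of genes, but gave no p-value, adjusted or not, for 15 of the 25 tested members and so could not call those. The 10 became 2, both higher in KO, without Het 1, where 4.47% of genes passed, and 20 without Het 2, 18 without Het 3, 3 without KO 1 and 4 without KO 3. It was 1 with limma-voom. The log2 fold change of Tcf7l2 was -2.82 ± 1.28, that of Ebf3 -2.57 ± 1.00, that of Lhx9 -1.45 ± 0.65, that of Slc17a6 -0.66 ± 0.25, that of Zic1 -0.026 ± 0.37 and that of Zic4 -0.022 ± 0.43. Their edgeR adjusted p-values ran from 0.607 for Tcf7l2, Ebf3, Lhx9 and Slc17a6 to 0.988 for Zic4. Without Het 1 the values were 0.73 for Tcf7l2, 0.12 for Ebf3, 0.030 for Lhx9, -0.28 for Slc17a6, 0.50 for Zic1 and 0.43 for Zic4. The libraries of the genotypes overlapped for every one of the 30 members, where 6.05% of tested genes were higher in every KO library and 5.05% lower.

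Over the 25 tested members, the median log2 fold change between KO and WT was 0.46, and -0.070 without KO 2. Between Het and WT it was 2.44, and 0.045 without Het 1. Between KO and Het it was -2.04, and 0.39 without Het 1. Over all tested genes the same medians were 0.00072, 0.0021 and -0.0062. The members' medians cover those that passed the low-count filter, and the size or sign of each rests on 1 library. Among the other region lists none of the tested genes was called in any of the 3 comparisons: 0 of 10 thalamic, 0 of 7 habenular, 0 of 6 hypothalamic, 0 of 10 midbrain and 0 of 13 cortical genes. The median log2 fold change of the 10 midbrain genes was 0.94 for KO against WT, 1.91 for Het against WT and -1.39 for KO against Het. In the same order it was 0.35, 0.33 and -0.15 for the thalamic and 0.27, 0.54 and -0.22 for the habenular genes. The hypothalamic genes had 0.42, 0.46 and 0.56, and the cortical genes -0.31, -0.38 and 0.024. All these medians include Het 1 and KO 2.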

How the data were processed

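The authors deposited a table of whole-number read counts for 55335 Ensembl genes in 9 bulk libraries, per the file header, with rows of 0 kept. FastQC, STAR and StringTie are named in the submitters' processing notes with build mm10; which tool counted, its annotation and its strand setting are not given in the sources used here. The labels give 3 brain tissues per genotype.

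Symbols were found for 55154 IDs, and exon lengths came from GENCODE M21. CPM were computed from the counts on TMM-scaled totals. edgeR 4.0.16 in R 4.3.3 fitted all 9 libraries in 1 quasi-likelihood model of genotype (robust, filterByExpr), which kept 18844 genes holding 99.9% of counts, with a biological coefficient of variation of 28.2%; it was tested on simulated counts. Alternatives were DESeq2 1.42.0, limma 3.58.1 (voom), other filters and scalings, blocks, and leaving out each library. Each library's level was set against the 9-library median of log2(CPM + 0.1), which understates low genes. Floors of 3 counts cover counting error only. No 2 libraries were copies: the lowest mean chi-square per gene was 9.64.

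The 30 members and all lists were chosen with earlier results of these data known. By rule, all members are named with values; fold changes are given for called members and the 6 most abundant tested ones; other lists give up to 3 most abundant genes, and Het 1 its 10 furthest non-members each way. Replicate numbers were not taken to pair libraries. Some genes that the rule would name are not reported here.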

Additional observations from a re-analysis of the deposited data

How the results depend on the processing

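The count of members called stayed at 0 in each comparison under every alternative run, and 311 of 342 recomputed fold changes kept their direction. None of these was on the called side of the threshold in any fit, so that share measures direction only. DESeq2 gave no p-value, adjusted or not, for 15 of the 25 tested members and so could not call those. The cause of each change below was not tested beyond what the alternative leaves out.

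The median log2 fold change of the tested members in KO against WT was 0.46; it was 0.086 with at least 1 CPM in at least 3 libraries, 0.11 with only the groups compared, 0.73 for members not known from cortex, hem, meninges or blood, and 0.061 without both Het 1 and KO 2, an alternative chosen after seeing the data. Leaving out 1 library gave -0.070 (without KO 2) to 0.68. In Het against WT it was 2.44; it was 1.59 under the stricter filter, 1.28 with limma-voom, 0.22 with quality weights, 4.21 for the members not known from those tissues and 0.045 without both libraries, and 0.045 (without Het 1) to 3.73 leaving out 1. In KO against Het it was -2.04; it was -1.04 with limma-voom, 0.085 with quality weights, -0.017 without both libraries, and -2.88 to 0.39 (without Het 1) leaving out 1.

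Replicate numbers were not taken to pair the libraries. Correlations of same-numbered libraries ran from -0.25 to 0.26, and those of differently numbered libraries from -0.29 to 0.37. These overlapping ranges do not decide whether the numbers pair libraries. With the replicate block the median was 1.59 in Het against WT and -1.24 in KO against Het, the KO against Het log2 fold changes of Zic1 and Zic4 were 0.11 and 0.098, and no call changed. The members at an unadjusted p under 0.05 then numbered 0 in Het against WT and 1 in KO against Het. With only the groups compared that count was 5 of 21 in KO against WT, 7 of 21 in Het against WT and 3 of 23 in KO against Het.

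Some single genes changed sign. Ebf3 in KO against WT (0.0012) was -0.014 with no filter, -0.0016 with only the groups compared, -0.040 with the letter as a block, -0.085 without both libraries, and -0.086 to 0.087 leaving out 1. In Het against WT without both libraries Slc17a6 was -0.039 and Ebf3 -0.13, and leaving out 1 gave -0.040 to 0.51 and -0.13 to 3.09. In KO against Het, limma-voom gave 0.16 for Zic1 and 0.23 for Zic4; quality weights gave 0.27 for Zic1, 0.27 for Tcf7l2 and 0.20 for Zic4; and the fit without both libraries gave 0.45 for Zic1, 0.025 for Lhx9, 0.043 for Ebf3 and 0.36 for Zic4. Leaving out 1 there gave -0.38 to 0.50 for Zic1, -3.70 to 0.73 for Tcf7l2, -1.88 to 0.030 for Lhx9, -3.09 to 0.12 for Ebf3 and -0.43 to 0.43 for Zic4. Depth limits the rarest members: 3 counts are 0.0566 to 0.0799 CPM.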
